A study of Homo sapiens with 2 samples.

Results

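Heat shock proteins and chaperones were followed in U87 cells after silencing of HOXD9. U87 is an established cell line derived from a human glioblastoma, and HOXD9 is a homeodomain transcription factor. The members were all genes of the HSP70, HSP110, HSP90, HSP60/HSP10, small HSP, J protein, TRiC and BAG families, found by the start of their symbols, together with HSF1, calreticulin, calnexin and 4 protein disulfide isomerases. They were 96 genes on 226 probe sets, out of 19775 named genes and 54613 probe sets on the array, and 80 of the 96 genes had a probe set above the signal filter. The HOXD9-silenced sample was transfected with HOXD9 siRNA-2, a single duplex against HOXD9, and the other with a non-silencing control siRNA, each at 50 nM with Lipofectamine RNAiMAX. RNA was taken on Day 2 and hybridized to the Affymetrix U133 Plus 2.0 array, which reads a transcript with 1 or more probe sets of short probes. There was 1 array per condition, so no SD between replicates, no p-value and no test can be given, and a second HOXD9 duplex was not analysed here.

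Chaperones bind proteins that are not yet folded, keep them from clumping and release them for folding, mostly in cycles driven by ATP. HSP70 proteins are loaded by J proteins and unloaded by nucleotide exchange factors such as the BAG and HSP110 proteins, HSP90 finishes kinases and receptors, and TRiC is a ring that encloses actin and tubulin. The cytosol, the endoplasmic reticulum (ER) and the mitochondria each hold a set of their own. Cytosolic stress raises many of these genes through HSF1, and misfolded proteins in the ER raise others through the unfolded protein response.

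HOXD9 itself was dim. Its brighter probe set had a signal of 5.58 in HOXD9 siRNA-2-transfected cells and 19.7 in control siRNA-transfected cells, and the other had 11.4 with HOXD9 siRNA-2 and 9.33 with control siRNA. The 27 probe sets for 5 Bacillus subtilis genes, which human cells lack, reached 18.4 on the HOXD9 siRNA array and 11.4 on the control siRNA array, so that 18.4 was taken as background on both and 3 of the 4 HOXD9 signals lay within it. Taken against the background the brighter probe set was lower by at least 1.07-fold as deposited, and after centering that bound is lost, so these signals do not check the labels. The median signal was 18.3 on the HOXD9 siRNA array and 22.5 on the control siRNA array, so the arrays did not share 1 median. How they had been scaled is not given. Log2 ratios are HOXD9 siRNA-2 over control siRNA as deposited, and centering each array on its median adds 0.30 to every one of them. Of the glioma markers VIM, NES and CD44 were above background on both arrays, whereas GFAP, S100B, SOX2 and OLIG2 were not on any probe set on both. EPCAM and PECAM1 had 1 probe set each above background on both arrays, and PTPRC, CDH1 and RBFOX3 had none. With HOXD9 siRNA-2 and control siRNA these signals were 23.8 and 28.2 for EPCAM and 40.3 and 43.4 for PECAM1.

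No chaperone gene was past 2-fold in either direction. A gene was read by its brightest probe set above the filter, a mean signal of 19.8. Of 80 members 0 were lower and 0 higher, where 4.95% of all 11624 genes were lower and 0.516% were higher. These shares of all genes are not matched for brightness. In the deposited signals 10.2% of the dimmest 3875 genes fell past 2-fold, but only 1.63% of the brightest 3875. The brightest held 50 of the 80 members, so for most members 1.63% is the nearer comparison. With each array centered, the members again gave 0 and 0, against 2.31% lower and 1.17% higher over all genes. Where signals within the background were first raised to it, the members still gave 0 and 0, against 4.14% lower and 0.249% higher over all genes as deposited and 1.45% and 0.611% after centering. The member ratios ran from -0.997 to 0.21, with a median of -0.21, and the median of all genes was -0.25. After centering these medians were 0.09 for the members and 0.05 for all genes. Of the 80 members 66 (82.5%) lay below 0, near the 83.2% of all genes, and after centering 24 (30.0%) did so, against 43.7% of all genes.

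The members were then read by compartment. The 46 cytosolic and nuclear genes had a median log2 ratio of -0.13 (quartiles -0.29 and -0.03), the 18 ER genes -0.27 (-0.41 and -0.20) and the 8 mitochondrial genes -0.22 (-0.27 and -0.15). After centering the medians were 0.17 in cytosol and nucleus, 0.03 in the ER and 0.08 in mitochondria, so that the signs turned. Centering adds the same 0.30 to every ratio, so the order could not change. With all probe sets of a gene averaged the cytosolic and nuclear median was -0.22, level with mitochondria at -0.22, and the ER stood at -0.36. Of the cytosolic and nuclear genes 32 of 46 lay above the median of all genes, against 7 of 18 in the ER and 6 of 8 in mitochondria. The 3875 brightest genes, those with a signal of 358 or more, had a median of -0.20, and 59.2% lay above the median of all genes. Among these the medians were -0.13 over 28 cytosolic and nuclear genes, -0.27 over 15 ER genes and -0.23 over 6 mitochondrial genes. The scatter of a gene's probe sets around their mean had a pooled SD of 0.41 on the log2 scale for 6081 genes and also 0.41 for 59 members. Probe sets of a gene read the same 2 arrays, so this scatter does not measure replicate error, the variation between cultures or arrays. Genes are not replicates, and the medians are a description of the 2 arrays.

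**Figure D1:**
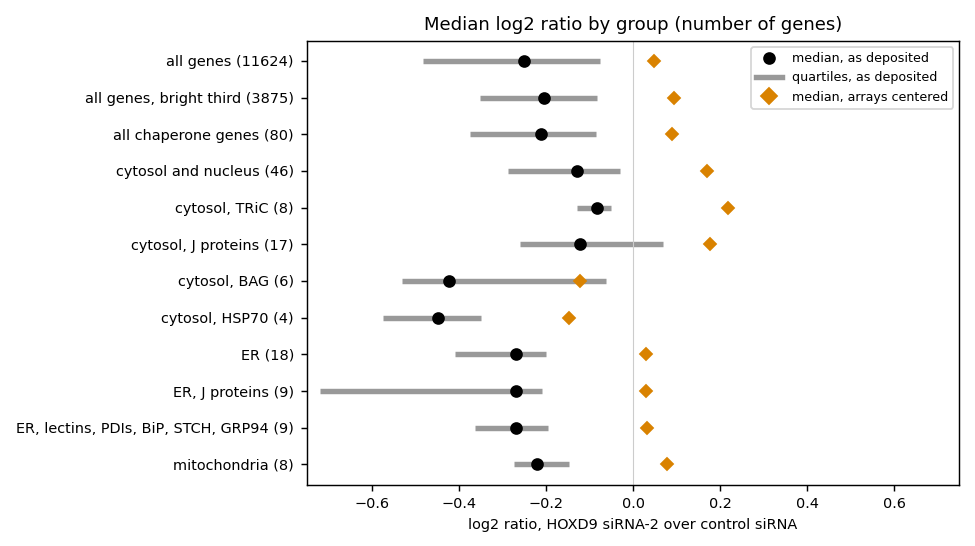
Median log2 ratio (x axis, HOXD9-silenced over control cells) of each group of genes (y axis, number of genes in brackets). Black points are medians and gray bars quartiles of the deposited signals, and orange diamonds are medians after each array was centered. TRiC stands farthest right at -0.08 and cytosolic HSP70 and BAG genes farthest left at -0.45 and -0.42.

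In the ER the brightest probe set of every one of the 18 genes was below 0 as deposited, as was that of 83.2% of all genes. After centering 11 of the 18 stood above 0, where 56.3% of all genes did. The ratios of HSPA5 and HSP90B1 were smaller in size than the pooled SD of probe sets, 0.41, which does not measure replicate error. HSPA5 encodes BiP, the HSP70 of the ER and the classical target of the unfolded protein response. Its signal was 6254 in HOXD9 siRNA-2-transfected cells and 7166 in control siRNA-transfected cells, a log2 ratio of -0.20 (0.10 after centering), and its other probe set gave -0.25. HSP90B1, which encodes GRP94, the HSP90 of the ER, gave 2371 with HOXD9 siRNA-2 and 2640 with control siRNA, a log2 ratio of -0.15. Both probe sets used for it end in _x_at, a suffix for probes that can bind several transcripts, and 2 more that are also annotated to MIR3652 were set aside. BiP and GRP94 thus stood close to each other and slightly above the median of all genes.

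The lectin chaperones hold glycoproteins until their sugars are trimmed, and ERp57, encoded by PDIA3, forms disulfides in the proteins they hold. CALR (calreticulin) had signals of 436 with HOXD9 siRNA-2 and 525 with control siRNA, a log2 ratio of -0.27, and CANX (calnexin) had 2748 with HOXD9 siRNA-2 and 3557 with control siRNA, a log2 ratio of -0.37. A dimmer CALR probe set gave -0.86. PDIA3 stood at -0.29 and P4HB, the main disulfide isomerase, at -0.27. PDIA6 stood at -0.16, and its 4 probe sets lay between -0.21 and -0.16. PDIA4, encoding ERp72, was the lowest of the isomerases at -0.47, at 599 with HOXD9 siRNA-2 and 829 with control siRNA. HSPA13 (STCH), an HSP70-like ATPase of the ER, stood at -0.36. None of these lectins and isomerases lay outside the range of -0.47 to -0.16 on the brightest probe set, and centering brings this range to -0.17 to 0.14.

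The promoters of 4 ER members held an element through which the unfolded protein response acts. The ER stress element, spelled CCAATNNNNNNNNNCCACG, binds NF-Y at its CCAAT part and ATF6 at its CCACG part. It was searched on both strands in the RefSeq promoters of GRCh38.p14, from 250 bases before to 50 after each gene start, and its CCAAT part is itself a CCAAT box. It was found in 4 of 16 ER promoters, 0 of 47 cytosolic and nuclear and 0 of 8 mitochondrial ones, and in 0.0806% of all 27305 promoters. The 4 are shown because BiP, GRP94, calreticulin and calnexin are the central folding proteins of the ER. Each is written in the direction of its gene, and the capitals mark the element with its 9-base spacer, as spelled or as the reverse complement, with its place in bases from the gene start (negative before it).
HSPA5 (chr9:125241376-125241424, minus strand, -66 to -48): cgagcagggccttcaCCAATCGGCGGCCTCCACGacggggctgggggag
HSP90B1, distal element (chr12:103930201-103930249, plus strand, -194 to -176): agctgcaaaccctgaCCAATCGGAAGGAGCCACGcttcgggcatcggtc
HSP90B1, proximal element (chr12:103930306-103930354, plus strand, -89 to -71): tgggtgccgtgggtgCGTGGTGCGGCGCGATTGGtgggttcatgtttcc
CALR (chr19:12938369-12938417, plus strand, -225 to -207): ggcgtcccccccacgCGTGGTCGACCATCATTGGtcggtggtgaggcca
CANX (chr5:179698763-179698811, plus strand, -151 to -133): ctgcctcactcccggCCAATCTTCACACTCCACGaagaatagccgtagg

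The 4 members with the element had a median log2 ratio of -0.23, and the 68 members above the filter whose promoter lacked it had -0.21. Over all genes above the filter, 12 had the element, with a median of -0.23. A match is only a description of these letters, and the element was not tested for use in these cells. The CCAAT box alone was in 42.4% of 85 member promoters and in 35.7% of all promoters.

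On the brightest probe set the lowest ER genes were J proteins, which bring unfolded clients to BiP in the lumen or to HSP70 at the cytosolic face of the membrane. With probe sets averaged the lectin CANX, at -0.86, was lower than DNAJC3, at -0.67, and DNAJC16 stood at 0.30. DNAJC14, an ER membrane J protein, had signals of 124 in HOXD9 siRNA-2-transfected cells and 248 in control siRNA-transfected cells, 50.1% of the control. Its other probe set gave 71.7 with HOXD9 siRNA-2 and 155 with control siRNA, a log2 ratio of -1.11. DNAJC14 was thus the lowest member by its brightest probe set, at -0.997 just inside 2-fold, and the only one with every probe set at or near -1 in the deposited signals. After centering its probe sets stood at -0.70 and -0.81, short of 2-fold. DNAJC16, another ER membrane J protein, gave -0.78 and -0.73 on its brighter probe sets, and signals of 109 with HOXD9 siRNA-2 and 186 with control siRNA on the brightest. Its dimmest probe set ran the other way, with 36.1 in HOXD9 siRNA-2-transfected cells and 6.78 in control siRNA-transfected cells, at least 1.96-fold higher since the control signal lay within the background. DNAJC3 encodes P58IPK, a BiP cochaperone induced by the unfolded protein response. Its 4 probe sets gave -0.77, -0.72, -0.68 and -0.51, the brightest with signals of 661 with HOXD9 siRNA-2 and 1089 with control siRNA. DNAJC3 was therefore low on all of its probe sets, and after centering it stood at -0.42 on the brightest.

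The other ER J proteins stood closer to the median of all genes. DNAJC1 (ERdj1) gave -0.42, DNAJB9 (ERdj4) -0.27, DNAJB14 -0.23, DNAJC10 (the disulfide reductase ERdj5) -0.21, DNAJB11 (ERdj3) -0.18 and DNAJB12 -0.13 on the brightest probe sets. On the brightest probe sets P58IPK was low, ERdj1 stood between, and ERdj3, ERdj4 and ERdj5 were within 0.1 of the median of all genes. With probe sets averaged ERdj5 stood at -0.63, near P58IPK at -0.67. ERdj1 then stood at -0.42, ERdj4 at -0.28 and ERdj3, with 1 probe set, at -0.18. Over the 9 ER J proteins the median was -0.27, the same as over the 9 other ER members.

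**Figure D2:**
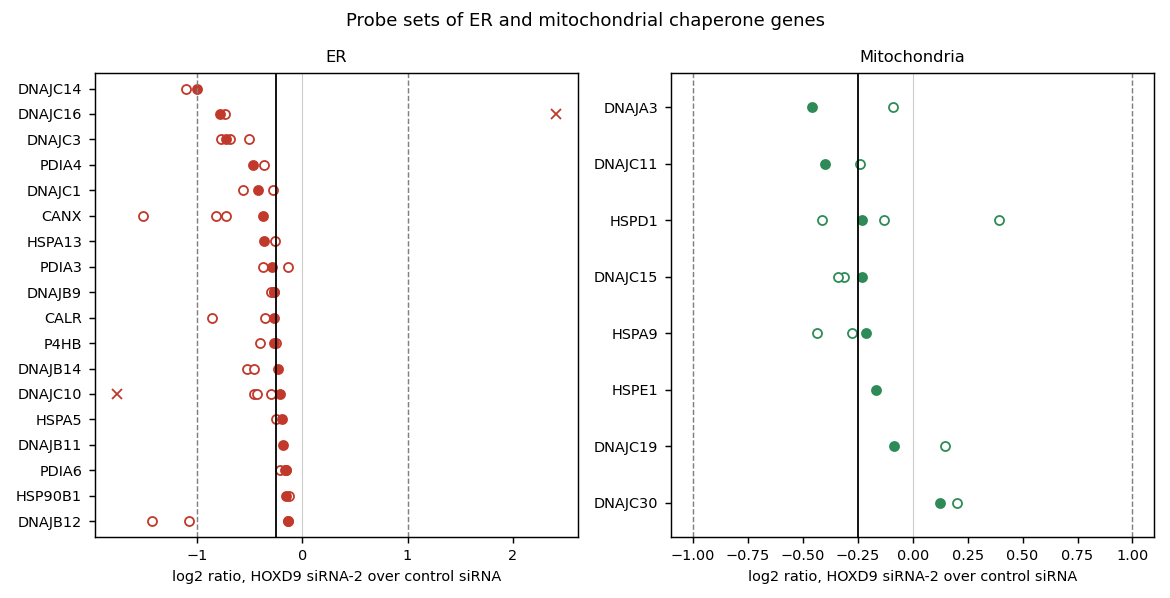
Log2 ratio (x axis, HOXD9-silenced over control cells) of every probe set above the signal filter for ER and mitochondrial genes (y axis, ordered by the brightest probe set). Filled points are the brightest probe set, open points the others, crosses those with 1 signal within the background, dashed lines 2-fold and the solid line the median of all genes, -0.25. DNAJC14, DNAJC16 and DNAJC3 top the ER panel, with filled points from -0.997 to -0.72, and the mitochondrial points lie between -0.46 and 0.39.

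CANX and DNAJB12 were past 2-fold on dimmer probe sets while their brightest were not. CANX gave -1.51 on its dimmest probe set above the filter, with 75.9 in HOXD9 siRNA-2-transfected cells and 217 in control siRNA-transfected cells, and -0.82, -0.72 and -0.37 on the others. DNAJB12 gave -1.43 on a probe set with 40.0 in HOXD9 siRNA-2-transfected cells and 108 in control siRNA-transfected cells. Its dimmest gave -1.07, with 21.9 after HOXD9 siRNA-2 and 46.0 after control siRNA, and both of its brighter ones gave -0.13. DNAJC10 was at least 1.71-fold lower on 1 of 5 probe sets, or 1.39-fold after centering, because the signal of 9.28 in HOXD9-silenced cells was within the background. These genes therefore gave a different answer according to the probe set, and which transcript each probe set reads was not tested. Over the 17 ER genes with 2 or more probe sets the pooled SD was 0.55, or 0.35 without DNAJC16, against 0.33 over 29 cytosolic and nuclear genes and 0.21 over 7 mitochondrial ones. The median range between probe sets of a gene was 0.24 in the ER and 0.41 in cytosol and nucleus. On the signals as measured, 7 of 183 member probe sets (3.83%) were lower and 1 (0.546%) was higher by more than 2-fold, against 6.26% lower and 0.582% higher over all 22690 probe sets of 1 gene. The 7 belonged to BAG5, CANX, DNAJB12 (2 of them), DNAJB5, DNAJC10 and DNAJC14, and the 1 to DNAJC16. Of these 8, the probe sets of DNAJB5, DNAJC10 and DNAJC16 had a signal within the background and bounds short of 2-fold. With background as the floor 5 were lower, in BAG5, CANX, DNAJB12 and DNAJC14, and 0 higher, against 5.04% lower and 0.286% higher over all probe sets. After centering 3 were lower and 2 higher as measured (2.78% and 1.38% of all), but with the floor 2 were lower, in CANX and DNAJB12, and 0 higher (1.71% and 0.714% of all).

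Other genes of ER quality control were read from a list of 27, of which 23 passed the filter. Their median log2 ratio was -0.22 (0.08 after centering), with 1 (4.35%) lower and 0 higher past 2-fold, near the 4.95% of all genes that were lower. The 1 was ERO1A, the oxidase that recharges disulfide isomerases, with a signal of 341 in HOXD9 siRNA-2-transfected cells and 852 in control siRNA-transfected cells. Its 3 probe sets ran from -1.51 to -1.17, and its brightest stood at -1.32, or -1.02 after centering. ERO1A was thus past 2-fold while the isomerases among the members stood between -0.47 and -0.16. XBP1, a transcription factor of the unfolded protein response, had a brighter probe set at -0.59 and a dimmer one at -0.05. HYOU1, an HSP110-like partner of BiP, stood at -0.44. At the upper end were DDIT3, which encodes the stress factor CHOP, at 0.32 (170 with HOXD9 siRNA-2 and 136 with control siRNA), HERPUD1, of ER-associated degradation, at 0.30 and SEC61B, a subunit of the translocation channel, at 0.15 (-0.57 on its other probe set). ATF4, which acts upstream of CHOP, stood at -0.16, and after centering ATF4 was at 0.14 and CHOP, read by 1 probe set, at 0.62. Also on the list, ATF3 stood at -0.40, EIF2AK3 at -0.39, TRIB3 at -0.32 and PPP1R15A at -0.004. After centering ATF3, EIF2AK3 and TRIB3 were still below 0, at -0.10, -0.09 and -0.01, and PPP1R15A was at 0.30.

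In the cytosol the folding ring TRiC stood near 0 in the deposited signals. Its 8 measured subunits ran from -0.28 to 0.07 with a median of -0.08, and 7 of the 8 lay above the median of all genes. After centering all 8 stood above 0, from 0.02 to 0.37, with a median of 0.22. By comparison, 56.3% of all genes and 67.5% of the 3875 brightest genes stood above 0 after centering. Of those brightest genes 59.2% lay above the median of all genes, and the TRiC subunits other than CCT6B were among them. CCT2 had signals of 3642 in HOXD9 siRNA-2-transfected cells and 3885 in control siRNA-transfected cells, a log2 ratio of -0.09. CCT5 had 3554 with HOXD9 siRNA-2 and 3387 with control siRNA, a log2 ratio of 0.07, although its dimmer probe set gave -0.44. CCT4 stood at -0.07, CCT8 at -0.07, CCT7 at -0.10, CCT3 at -0.21 and CCT6A at 0.00. The lowest was CCT6B, a form of the zeta subunit known from testis, at -0.28 with signals of 22.5 with HOXD9 siRNA-2 and 27.5 with control siRNA, close to the background. The alpha subunit, TCP1, was read only by probe sets annotated to several genes and was not analysed here. Without CCT6B the subunits of the ring spanned -0.21 to 0.07. Prefoldin, which hands actin and tubulin to TRiC, had 5 measured genes with a median of -0.04, from -0.22 in PFDN1 to 0.29 in PFDN2, and 5 of 5 above the median of all genes.

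The cytosolic HSP90 genes stood between the median of all genes and 0. HSP90AA1, the inducible form, had signals of 8742 with HOXD9 siRNA-2 and 9924 with control siRNA, and its 4 probe sets gave -0.19 to -0.11. HSP90AB1, the constitutive form, had 6425 with HOXD9 siRNA-2 and 7019 with control siRNA, and its 3 probe sets gave -0.24 to -0.13. All 7 probe sets of HSP90AA1 and HSP90AB1 lay above the median of all genes, and after centering they stood between 0.06 and 0.19. HSP90AA1 and HSP90AB1 were among the 3875 brightest genes, whose median was -0.20 and of which 59.2% lay above the median of all genes. The HSP110 genes, exchange factors of HSP70, lay above the median of all genes on their brightest probe sets only. HSPA4 stood at -0.22, HSPH1 at -0.13 and HSPA4L at -0.10. Dimmer probe sets gave -0.27 and -0.34 for HSPH1, -0.79, -0.31 and -0.22 for HSPA4, and 0.43 for HSPA4L.

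Of the 4 cytosolic HSP70 genes that could be measured 3 lay below the median of all genes, but the main ones are missing. The heat-inducible HSPA1A and HSPA1B and the constitutive HSPA8 were read only by probe sets annotated to several genes, and so were not analysed here. HSPA2, an HSP70 of male germ cells, had 102 in HOXD9 siRNA-2-transfected cells and 175 in control siRNA-transfected cells, a log2 ratio of -0.77 on its 1 probe set, which centering brings to -0.47. HSPA12A, a distant HSP70 relative, stood at -0.51 on its 1 probe set above the filter. HSPA14, a ribosome-associated HSP70 relative, stood at -0.39, and at -0.27 and -0.17 on its dimmer probe sets. HSPA6, a strictly stress-inducible HSP70, stood at -0.24, just above the median of all genes. Both HSPA6 probe sets were dim, with 34.5 and 28.6 in HOXD9 siRNA-2-transfected cells and 40.7 and 34.3 in control siRNA-transfected cells. HSPA6 thus read lower on both of its probe sets as deposited, but stood at 0.06 and 0.04 after centering.

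HSF1, the factor that switches on the heat shock genes, stood at -0.09, with -0.44 on a dimmer probe set, and HSF2 was not analysed here. Only some of the genes that HSF1 is known to raise are given here, and these lay on both sides of the median of all genes. The inducible HSP90AA1 (-0.18) and HSPA6 (-0.24), described above, also stood above that median, and DNAJA1 (-0.29) just below it. DNAJB1, the main heat-inducible J protein, had 1277 in HOXD9 siRNA-2-transfected cells and 1218 in control siRNA-transfected cells, a log2 ratio of 0.07 (0.37 after centering), and 0.12 on its other probe set. HSPB1, which encodes HSP27, had 2721 with HOXD9 siRNA-2 and 2884 with control siRNA, a log2 ratio of -0.08 (0.22 after centering). BAG3, which links HSP70 to selective autophagy, had 1102 with HOXD9 siRNA-2 and 1492 with control siRNA, a log2 ratio of -0.44, and its partner HSPB8 had 1005 with HOXD9 siRNA-2 and 1356 with control siRNA, a log2 ratio of -0.43. Thus DNAJB1 and HSPB1 stood above the median of all genes, and BAG3 and HSPB8 below it. After centering BAG3 and HSPB8 stood at -0.14 and -0.13. HSPB6, encoding HSP20, gave 0.21 on its brightest probe set and was at least 1.43-fold higher on the other, with signals no higher than 26.2.

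The heat shock element, 3 units of GAA or its complement spaced by 2 bases, was searched as GAANNTTCNNGAA and TTCNNGAANNTTC, which are each other's reverse complement. It was in 0.487% of all promoters and in 3 of 85 member promoters, all of them cytosolic. They are shown because they are the only members with all 3 units in this window, and the capitals mark the element, again with its place from the gene start.
HSPA6 (chr1:161524451-161524493, plus strand, -74 to -62): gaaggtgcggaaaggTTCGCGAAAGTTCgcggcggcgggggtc
DNAJA1 (chr9:33025261-33025303, plus strand, 3 to 15): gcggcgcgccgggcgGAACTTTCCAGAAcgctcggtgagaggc
DNAJB6 (chr7:157336858-157336900, plus strand, -131 to -119): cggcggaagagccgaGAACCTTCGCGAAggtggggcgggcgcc

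These 3 genes stood at -0.24 (HSPA6), -0.29 (DNAJA1) and -0.04 (DNAJB6), or at 0.06, 0.01 and 0.26 after centering. Over the 32 genes above the filter with this element the median was -0.29, and it was 0.01 after centering. No match in the other promoters says only that these letters are not in this window.

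Among the other cytosolic and nuclear J proteins, DNAJC9 was the lowest. It is a nuclear J protein that handles histones, and it had 1261 in HOXD9 siRNA-2-transfected cells and 1898 in control siRNA-transfected cells, a log2 ratio of -0.59. Its next probe set gave -0.83 and the dimmest -0.12. DNAJA2 gave -0.35 and 0.35 on probe sets of like signal, so that it had no direction. DNAJC17 stood at -0.32 and DNAJC21, of ribosome assembly, at -0.24. At the upper end DNAJB5 gave 0.17, DNAJC7, which links HSP70 and HSP90, 0.10, DNAJC24, of diphthamide synthesis, 0.07, and DNAJA4 0.07. DNAJB5, DNAJC7 and DNAJC24 also had a probe set that went the other way, at least 1.54-fold lower (1.25-fold after centering) for DNAJB5, at -0.92 for DNAJC7 and at -0.71 for DNAJC24. Over 17 cytosolic and nuclear J proteins the median was -0.12, with 12 above the median of all genes.

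The BAG proteins unload HSP70 and were the lowest cytosolic class beside HSP70, with a median of -0.42 over 6 genes (-0.12 after centering). BAG4 stood at -0.59, with 249 in HOXD9 siRNA-2-transfected cells and 376 in control siRNA-transfected cells, BAG1 at -0.56, BAG3 at -0.44 and BAG2 at -0.41. BAG5 and BAG6, the last a chaperone of tail-anchored membrane proteins, stood at 0.07 and 0.05. BAG1, BAG2, BAG3 and BAG4 were thus below the median of all genes and BAG5 and BAG6 above it. The split was less clear over all probe sets, since BAG5 gave 0.07, -0.65 and -1.02, and BAG4 gave 0.18 on its dimmest.

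**Figure D3:**
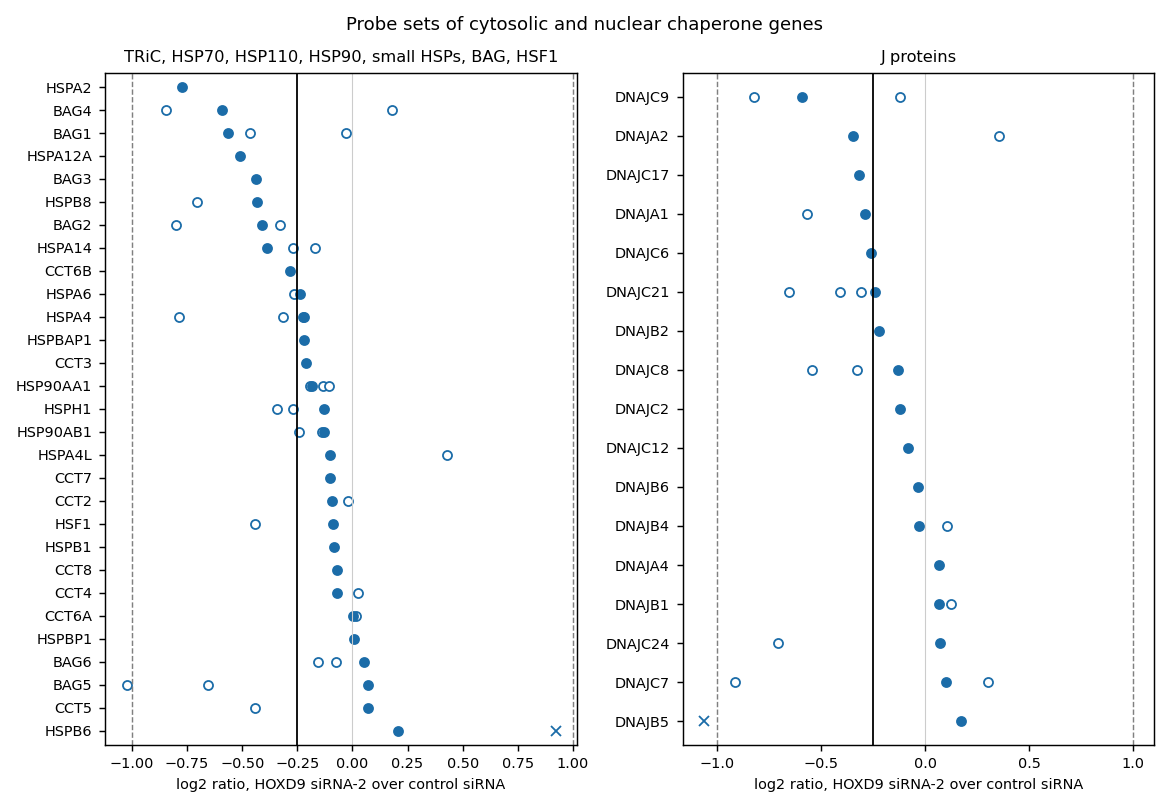
Log2 ratio (x axis, HOXD9-silenced over control cells) of every probe set above the signal filter for cytosolic and nuclear genes (y axis, ordered by the brightest probe set). Symbols and lines are filled points for the brightest probe set, open points for the others, crosses for those with 1 signal within the background, dashed lines for 2-fold and a solid line for the median of all genes, -0.25. The filled points of the TRiC genes run from -0.28 to 0.07, and no filled point reaches a dashed line.

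Other cochaperones of the cytosol were read from a list of 17, of which 15 passed the filter. None was past 2-fold, and the median was -0.14 (0.16 after centering), close to the -0.13 of the cytosolic and nuclear members. The lowest were CHORDC1, an HSP90 partner, at -0.70, the immunophilin FKBP5 at -0.59 and TOMM34, a cochaperone of mitochondrial import, at -0.54. The highest were the cyclophilin PPID at 0.10, HSBP1, which binds HSF1, at 0.03 and SUGT1 at 0.00, although the 5 probe sets of SUGT1 ran from -1.27 to 0.39. STIP1, which hands clients from HSP70 to HSP90, stood at -0.18, PTGES3, the HSP90 cochaperone p23, at -0.18 and CDC37, which brings kinases to HSP90, at -0.12. These last 3 were named after their values were seen, and they were within 0.1 of the HSP90 genes themselves. On the same list CHORDC1 and FKBP5, given above, and FKBP4 at -0.42 stood lower than the HSP90 genes.

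In mitochondria HSP70 imports proteins and HSP60 with its lid HSP10 folds them. HSPD1, encoding HSP60, had 7604 in HOXD9 siRNA-2-transfected cells and 8933 in control siRNA-transfected cells, a log2 ratio of -0.23. HSPE1, encoding HSP10, had 3444 with HOXD9 siRNA-2 and 3872 with control siRNA, a log2 ratio of -0.17. HSPA9, encoding mortalin, had 2499 with HOXD9 siRNA-2 and 2897 with control siRNA, a log2 ratio of -0.21, and -0.43 and -0.28 on its dimmer probe sets. The ring, its lid and the HSP70 thus stood close to each other, and after centering at 0.07 (HSPD1), 0.13 (HSPE1) and 0.09 (HSPA9). HSPD1 had 2 dim probe sets at -0.41 and 0.39, which disagreed in sign.

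The mitochondrial J proteins spread more widely. DNAJA3, the partner of mortalin, gave -0.46 and -0.09, and DNAJC11 gave -0.40 and -0.24. DNAJC15, of the inner membrane, gave -0.34 to -0.23, DNAJC19, of the import motor, -0.08 and 0.15, and DNAJC30 0.12 and 0.20. DNAJC30 was the only mitochondrial member above 0 on its brightest probe set in the deposited signals, whereas 6 of 8 were after centering. Other genes of mitochondrial quality control, 15 measured of a list of 16, had a median of -0.10 (0.20 after centering) and 0 past 2-fold. GRPEL1 and GRPEL2, exchange factors of mortalin, were the highest at 0.32 and 0.35, although GRPEL2 gave -0.32 on its other probe set. TIMM44, which anchors mortalin to the import channel, was the lowest at -0.70, at 110 with HOXD9 siRNA-2 and 179 with control siRNA, followed by the protease AFG3L2 at -0.46 and PAM16, of the import motor, at -0.37. The partners of mortalin therefore lay on both sides of mortalin itself.

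**Figure D4:**
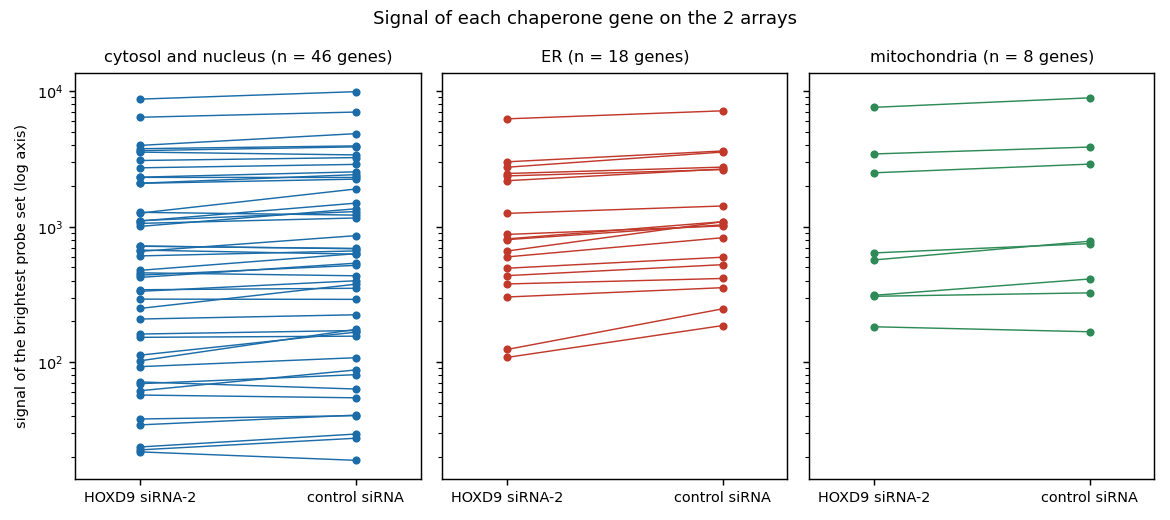
Signal of the brightest probe set (y axis, log scale) of each chaperone gene in HOXD9 siRNA-2-transfected and control siRNA-transfected cells, 1 line per gene and 1 panel per compartment. No line spans 2-fold, and the steepest in the ER panel are DNAJC14 (124 after HOXD9 silencing, 248 in the control) and DNAJC16 (109 after HOXD9 silencing, 186 in the control).

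Members outside these compartments, or whose place is not firmly known, were 8 above the filter, with a median of -0.31. DNAJC13, the endosomal J protein RME-8, stood at -0.19 and DNAJC5, the cysteine string protein of vesicles, at -0.42 on its brightest probe set and 0.01 and 0.03 on the others. DNAJC4 gave -0.56 and 0.48 on its brighter probe sets, DNAJC22 -0.53 and -0.78, DNAJC27 -0.15, DNAJC18 0.03 and DNAJB13 0.06 on the brightest. The lowest was DNAJC3-DT, a non-coding transcript divergent from DNAJC3, at -0.80 on dim signals of 21.5 with HOXD9 siRNA-2 and 37.4 with control siRNA. DNAJC3 and its divergent partner were thus both low, at -0.72 and -0.80.

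The remaining 16 genes did not reach the filter on any probe set. They were HSPA1L, HSPA12B, HSPB2, HSPB3, HSPB7, HSPB9, DNAJB7, DNAJB8, DNAJC5B, DNAJC5G, DNAJC28, CCT8L2 and the non-coding DNAJB8-AS1, DNAJC9-AS1, DNAJC27-AS1 and HSPA2-AS1, and in 10 of them every signal lay within the background. Many of them are known from testis or muscle, such as HSPA1L, HSPB9, HSPB2 and HSPB3. A further 18 probe sets carried a member symbol beside other genes and were set aside, among them the ones for HSPA8, TCP1, HSPA1A and HSPA1B.

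For 59 members more than 1 probe set passed the filter. Of these 36 were below 0 on all, 4 above 0 on all and 19 mixed. That is 61.0% below 0 throughout, against 62.8% of 6081 genes, and after centering 11.9% against 21.2%. In the ER 16 of 17 such genes were below 0 on every probe set, but 4 of 17 after centering. The dimmest probe set was lower than the brightest in 28 of 59 members and in 53.0% of all genes.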

How the data were processed

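Total RNA of U87 cells was read on 2 Affymetrix U133 Plus 2.0 arrays, 1 with HOXD9 siRNA-2 and 1 with control siRNA. What the authors deposited is a table with a linear intensity for each probe set. GCOS is named in the submitters' processing notes. How the arrays were scaled is not given in the sources used here, and no detection calls were used. After 62 control probe sets were set aside, log2 ratios were computed for 54613 probe sets. Of these 41091 had 1 gene in the platform annotation, 1801 several and 11721 were not listed. Symbols were checked by Entrez number against RefSeq (GRCh38.p14), which all 226 member probe sets matched. Probe sets with a mean signal at or above the median, 19.8, were kept, and the brightest of these stood for the gene. Genes were counted past 2-fold, as in the study's methods. Where 1 signal lay at or under 18.4, the fold is a bound against 18.4. Compartments were assigned by hand from general knowledge. RefSeq promoters were found for 85 of the 96 members.

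The rule for named genes took HOXD9, every HSPA, HSP90, HSPD, HSPE, HSPH, TRiC, lectin and isomerase member above the filter with HSF1 and HSF2, the 6 highest and 6 lowest J protein, small HSP and BAG genes per compartment and those past 2-fold, members whose probe sets differed in sign by more than 0.5 on each side, and the 3 highest and 3 lowest genes of each other list. PTGES3, STIP1, CDC37, FKBP4, ATF4, ATF3, EIF2AK3, TRIB3 and PPP1R15A, and some J proteins between these ends, were named after their values were seen. The members and lists were chosen with earlier results of these data known. Alternatives were centering, quantile normalization, loess (fraction 0.3), no filter, a stricter filter of 75.7 (the 70th percentile), signals raised to at least the 20th percentile, no _x_at or _s_at probe sets, and averaging probe sets. The procedure was tested on simulated data. With 1 array per condition the number of arrays limits the precision. Python 3.11.15, numpy 2.4.6, pandas 2.3.3, scipy 1.17.1, statsmodels 0.14.6 and matplotlib 3.10.9 were used.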

Additional observations from a re-analysis of the deposited data

How the results depend on the processing

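The signs of the median log2 ratios by compartment depended on the scaling of the arrays. As deposited they were -0.13 in cytosol and nucleus, -0.27 in the ER and -0.22 in mitochondria. Quantile normalization gave 0.09, -0.08 and -0.04, and loess gave 0.09, -0.09 and -0.03. Under both, as in the deposited signals, the ER stood lowest and the cytosol highest, an order that centering cannot change. The lead of the cytosol over mitochondria all but vanished with probe sets averaged (-0.22 and -0.22) and without _x_at and _s_at probe sets (-0.21 and -0.24), where the ER stood at -0.36 and -0.29. The median of TRiC was 0.22 after centering, 0.07 by quantile normalization and 0.08 by loess. Of 63 named members, centering turned the sign of 31, quantile normalization that of 21 and loess that of 19.

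The count of members past 2-fold was 0 in each direction under each scaling, with the stricter filter and the floor, and also with signals within the background raised to it, which was added after seeing the data. Without a signal filter 2 were lower (HSPA2-AS1 and DNAJC27-AS1) and 3 higher (CCT8L2, DNAJB7 and HSPB2), each with at least 1 signal within the background. Without _x_at and _s_at probe sets 1 was lower, CANX at -1.51, and with probe sets averaged 1 was lower, DNAJC14 at -1.05. The share of all genes past 2-fold is given only for the deposited and centered signals, with and without background as the floor. The member counts under the other settings therefore cannot be set beside all genes. Averaging moved 7 named members by more than 0.41 and leaving out such probe sets moved 6 of the 53 that still had one. No paired analysis was possible because there was 1 array per condition. A difference between the arrays cannot be told apart from a difference between the cultures or their handling.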
